A study of Homo sapiens with 4 samples.

Results

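Chromosome 16 was taken as all 398 bins that the deposited bin list places on it, of 14444 bins genome-wide, with every pair of those bins that the 4 Hi-C contact maps list. Within it, the 35 bins that start between 59 and 66 Mb (chr16:59000668-65999189, hg19) make up the gene desert of 16q21. This desert was chosen by its fall of distal contact with B-compartment bins in the OIS map against the Grow map, so every OIS minus Grow value of the desert below is a description of what chose it and supports nothing. The remaining bins fall into the gene-rich p arm (177 bins), the q arm before the desert (63 bins, called the proximal q arm), the q arm after it (122 bins, the distal q arm) and 1 bin that spans the centromere.

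The cells of all maps were IMR90, a human lung fibroblast line, carrying the retroviral vector pLNCX2 with ER:HRAS G12V, a mutant RAS fused to the oestrogen receptor that is switched on by 4-hydroxytamoxifen (4OHT). In the Grow condition the cells kept dividing. In OIS, oncogene-induced senescence (named RIS in the labels), they had received 100 nM 4OHT for 6 days, as the labels give it for OIS-shA1. In Grow-shA1 and OIS-shA1 the cells also carried pMSCV with a microRNA-type hairpin (miR shHMGA1) against HMGA1. Of the 4 samples in the series 2 are Grow-shA1 and 2 are OIS-shA1, and each condition's 2 samples had been pooled into 1 map before deposit. The maps of Grow and OIS match none of these samples and were made earlier by the same group. Where maps with and without shA1 are set against each other, the knock-down and the data set therefore cannot be told apart. With 1 map per condition there was no spread between replicates and no test, and the SD given beside a mean is the spread over pairs of bins or over bins, not an error of the condition. Because both shA1 conditions share one construct in one cell line, the values describe this line and this hairpin.

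Chromosomes fold into an A compartment of open, gene-rich chromatin and a B compartment of closed, gene-poor chromatin, and in Hi-C, which joins DNA ends that are near each other in fixed nuclei and sequences the joints, bins of one compartment contact each other more than bins of the other. Oncogenic RAS makes fibroblasts senescent, and in these cells closed chromatin can gather into dense foci. HMGA1 is an architectural chromatin protein whose AT-hooks bind the minor groove of A/T-rich DNA, and it accumulates on the chromatin of senescent fibroblasts. A gene desert, long, A/T-rich and typically B, is therefore a natural place to look at both processes. The only protein-coding genes that start in the 16q21 desert are CDH8 and CDH11, which encode type II cadherins, calcium-dependent cell adhesion proteins. CDH8 is chiefly known from neurons and CDH11 from fibroblasts and other mesenchymal cells.

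The desert differed from the rest of the chromosome in its sequence. It held 0.286 protein-coding gene starts per Mb, against 13.5 in the p arm, 8.05 in the proximal q arm and 11.5 in the distal q arm, and 24 long non-coding RNA genes overlapped it. Its bins had a GC content of 37.3% ± 1.83 (SD over 35 bins, range 35.2 to 43.2%), against 45.9% ± 4.91 in the p arm, 43.6% ± 3.68 in the proximal q arm and 45.9% ± 5.33 in the distal q arm. Runs of at least 5 A or T bases, the kind of sequence that AT-hooks bind, covered 24.1% ± 2.59 of the desert but 14.9, 17.0 and 15.1% of the 3 gene-rich regions. In all bins kept genome-wide the GC content was 40.6% ± 4.45 and the A/T-run share 20.6%, so that the desert was A/T-rich and the rest of chromosome 16 was A/T-poor for the genome. The desert was itself uneven. Its first 25 bins, up to 64001442 and here called the CDH8 block, had a GC content of 36.6% ± 0.924 and an A/T-run share of 25.1%, and the last 10 bins, the CDH11 block, had 39.0% and 21.6%. The desert bins also carried more sites of HindIII, the enzyme that cut the chromatin, with 62.9 per bin against 46.8, 55.2 and 48.7.

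The first 120 bases of 3 bins are shown to let the base composition be seen where the maps begin to count: the desert bin with the deepest change of distal contact, the bin in which CDH11 starts, and the bin of the distal q arm with the highest A-compartment score in Grow. Each is the + strand of GRCh37 (hg19), starts at the HindIII site aagctt that opens the bin, and has runs of at least 5 A or T in capitals. The windows lie at chr16:61602362-61602481, chr16:64999721-64999840 and chr16:66599846-66599965.
Desert bin of the CDH8 locus: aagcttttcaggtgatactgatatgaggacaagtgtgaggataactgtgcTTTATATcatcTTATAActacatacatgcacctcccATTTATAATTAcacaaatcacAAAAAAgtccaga
Desert bin of the CDH11 start: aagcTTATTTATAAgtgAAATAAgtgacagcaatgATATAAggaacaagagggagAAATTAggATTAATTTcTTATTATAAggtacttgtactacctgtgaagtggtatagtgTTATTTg
Distal q arm bin: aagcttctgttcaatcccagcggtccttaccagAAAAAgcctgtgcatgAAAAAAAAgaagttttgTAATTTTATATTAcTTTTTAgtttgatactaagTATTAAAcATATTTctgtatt

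Capitals made up 25, 42.5 and 37.5% of these windows in that order. Over the whole bins the A/T-run shares were 26.8, 20.5 and 15.3%, so a window of this length does not stand for its bin, and the distal q arm window is far richer in A/T runs than the bin it opens.

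Each pair of bins has a deposited contact score, which sets the contact between 2 bins of about 200 kb against the mean contact of bins the same distance apart. A score above 0 means more contact than usual for that distance, and 0 means average contact. The base of the scale and any prior are not given in the sources used here, so differences are given as differences of scores and not as folds. The files hold no read counts, and the share of pairs listed in a map stands in for its depth: on chromosome 16 it was 92.1% of the kept pairs in Grow, 88.5% in Grow-shA1, 80.4% in OIS and 79.1% in OIS-shA1. Pairs up to 2 Mb apart, called local here, were listed almost without exception (99.7 to 100%), and the loss lay among the pairs more than 2 Mb apart, called distal, of which 91.6, 87.9, 79.4 and 78.0% were listed. Of the 398 bins, 342 were kept because they were listed in at least 50% of their pairs in every map. The others included the first 16 bins of the p arm, up to 3200637 and with 148 genes, and 23 of the 27 bins from 85 Mb on. The dropped bins were the richest in genes (4.80 per bin and 52.5% GC, against 1.76 and 43.6% in the kept ones), so the comparisons with the arms leave out much of their most gene-rich chromatin. All 35 desert bins were kept.

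The desert was mostly B compartment in all 4 maps, with 33, 33, 30 and 33 of its 35 bins in B in Grow, Grow-shA1, OIS and OIS-shA1, but its 2 blocks were not alike. The compartment score is the first principal component of the correlation matrix of the chromosome's contact scores, turned so that positive values mark A bins. Unlisted pairs entered that matrix with a score of 0. The component carried 80.6, 79.8, 66.2 and 63.2% of the variance of the correlation matrix in Grow, Grow-shA1, OIS and OIS-shA1. In the CDH8 block the mean score was -1.27 ± 0.175 in Grow, -1.32 ± 0.171 in Grow-shA1, -1.09 ± 0.289 in OIS and -1.14 ± 0.22 in OIS-shA1 (SD over 25 bins), and all 25 bins were B in every map. The CDH11 block lay much closer to 0, with -0.454 ± 0.482, -0.6 ± 0.542, 0.0278 ± 0.325 and -0.301 ± 0.345 (SD over 10 bins). It thus rose to the border of A and B in OIS and rose less with shA1. Outside the desert the mean scores were -0.268, -0.249, -0.282 and -0.248 in the p arm, -0.303, -0.248, 0.0216 and 0.00504 in the proximal q arm, and -0.0437, -0.0279, 0.0325 and 0.0307 in the distal q arm.

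**Figure D1:**
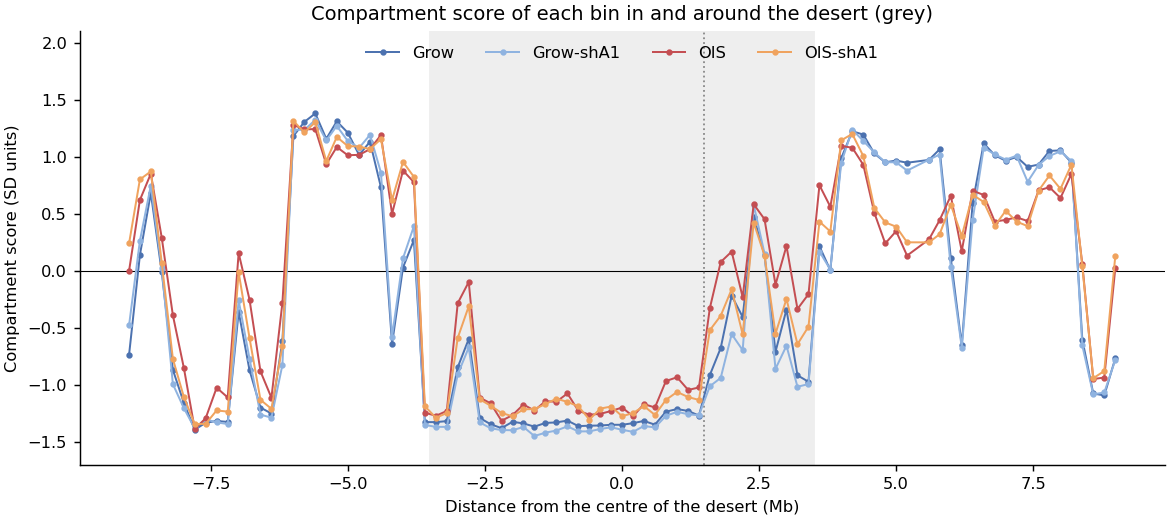
Compartment score of each kept bin in and around the desert against its distance from the desert's centre at 62.5 Mb, in the 4 maps. The desert from 59 to 66 Mb is shaded. The desert forms a deep trough of negative scores in every map, and the bins towards its distal end rise to 0 in OIS.

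From Grow to OIS 3 of 35 desert bins (8.57%) crossed 0, near the 9.76% genome-wide, and they lay in the CDH11 block. The block held 2 A bins in Grow, 2 in Grow-shA1, 5 in OIS and 2 in OIS-shA1. The bin from 64198745 scored -0.677, -0.939, 0.077 and -0.394 in Grow, Grow-shA1, OIS and OIS-shA1. The bin from 64398482 scored -0.217, -0.555, 0.168 and -0.162, and the bin from 65400582 scored -0.339, -0.657, 0.217 and -0.246. All 3 were thus B without RAS, A in OIS and B again in OIS-shA1, and for each of them the score in Grow-shA1 was also lower than in Grow. The bin in which CDH11 starts, from 64999722, was A in every map (0.138, 0.151, 0.453 and 0.134), as was the bin just before it, from 64801084 (0.471, 0.578, 0.583 and 0.423). Over the whole chromosome 31 of 342 bins (9.06%) changed compartment from Grow to OIS, 27 of them from B to A, against 1328 of 13604 kept bins (9.76%) genome-wide. From Grow-shA1 to OIS-shA1 22 bins did (6.43%, against 9.20% genome-wide), and none of those lay in the desert. OIS and OIS-shA1 differed in 8 bins (2.34%, against 4.56% genome-wide), 3 of them among the 35 desert bins (8.57%). Grow and Grow-shA1 differed in 5 (1.46%, against 3.33% genome-wide). A bin that crosses 0 need not have moved far, and the share of variance carried by the component fell with RAS in both pairs of maps. The share of listed pairs fell as well, and unlisted pairs entered the component as 0. Under the alternatives tried, the desert count from Grow to OIS ranged from 1 to 4, and its B bins in OIS from 30 to 33. The RAS counts for the whole chromosome ranged from 28 to 67 without shA1 and from 19 to 52 with it.

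**Figure D2:**
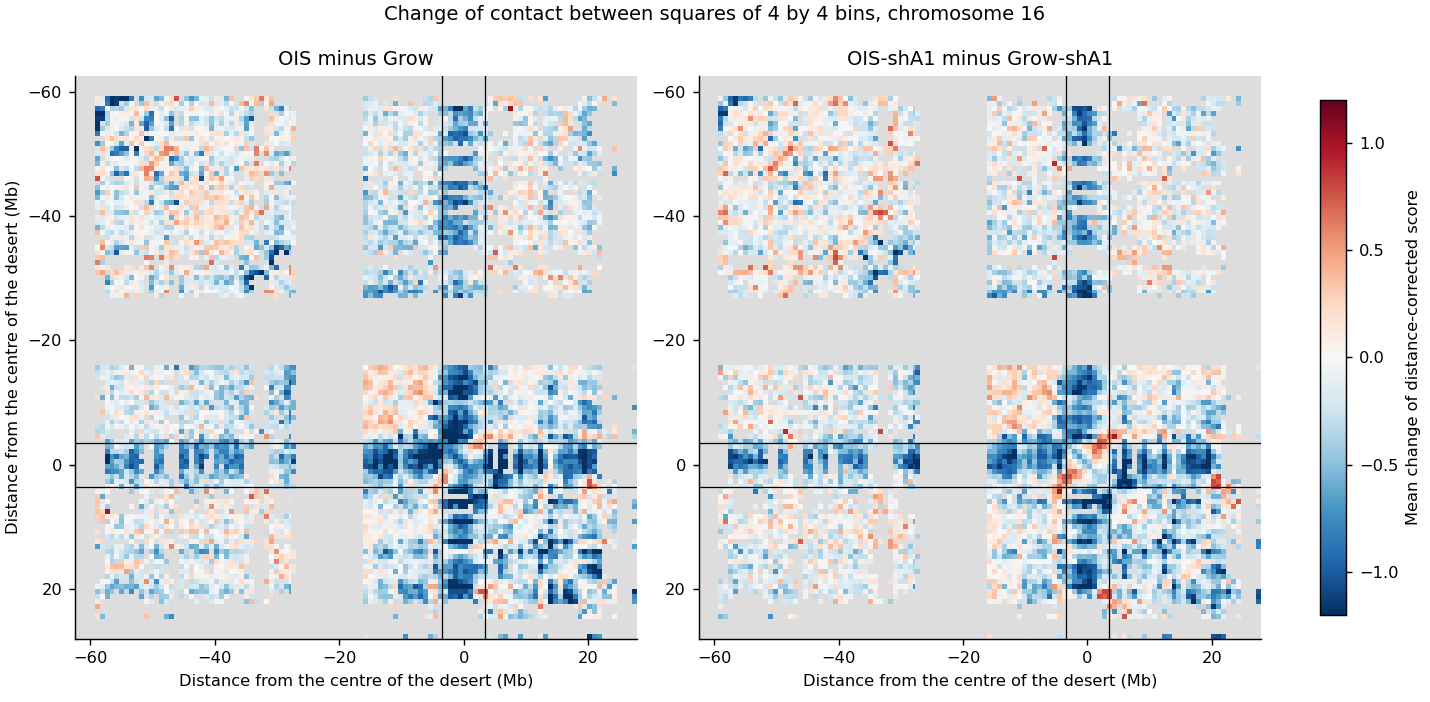
Mean difference of contact score between 2 maps over small squares of neighbouring kept bins of chromosome 16, for the RAS change without and with shA1. Both axes give the distance from the centre of the desert in Mb, and the centromere is left empty. The desert appears as a cross of negative differences towards both arms in the RAS comparisons, at a mean of -0.517 to the p arm without shA1 and -0.521 with it.

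In Grow the mean contact of the desert with each other region was above the usual for the distance. In the senescent maps these means were close to the usual or below it. The excess lay in pairs with B bins. With the A bins of the p arm, proximal q arm and distal q arm the desert scored -0.102, -0.149 and -0.338 in Grow. Of the p arm pairs used below, 2299 were with B bins. To the p arm its mean contact score was 0.357 in Grow, 0.366 in Grow-shA1, -0.16 in OIS and -0.155 in OIS-shA1 (SD over pairs 0.658, 0.709, 0.642 and 0.541, 2655 of the 5110 pairs of kept bins, those listed in all maps). The change with RAS was -0.517 without shA1 and -0.521 with it, and 81.1 and 77.7% of the pairs were lower. To the distal q arm the scores were 0.617, 0.55, 0.00737 and 0.0173 (SD 1.14, 1.21, 1.39 and 1.3, 2688 of 3430 pairs), a change of -0.61 without shA1 and -0.532 with it. To the proximal q arm they were 0.493, 0.542, -0.258 and -0.0116 (SD 0.871, 0.978, 1.14 and 1.08, 2101 of 2205 pairs). Here the 2 pairs of maps were less alike, with changes of -0.751 and -0.554, and OIS-shA1 lay 0.247 above OIS. The same difference between OIS-shA1 and OIS was 0.00448 to the p arm and 0.00991 to the distal q arm.

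The rest of the chromosome moved much less. The contact of the p arm with the distal q arm changed by -0.0859 without shA1 and by -0.0605 with it (6586 of 14308 pairs), but over all pairs that each map lists these values turned to 0.0196 and 0.0267, so their direction is not settled. Contact within the p arm changed by -0.0837 and -0.0395. Contact within the distal q arm changed by -0.28 and -0.273. Fewer of the pairs behind the desert means were listed in the senescent maps. To the p arm 86.7, 82.2, 67.7 and 64.3% were listed in Grow, Grow-shA1, OIS and OIS-shA1, and to the distal q arm 98.6, 96.5, 84.2 and 84.5%. The paper gives fewer reads for OIS-shA1 than for Grow-shA1, so RAS and depth cannot be told apart in these shares. Taken over all pairs that each map lists, the desert's change was -0.308 without shA1 and -0.333 with it to the p arm, and -0.349 and -0.296 to the distal q arm, so the direction held and the size did not.

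The fall covered both compartments on the far side. Here and below, partner bins were called A or B by their score in the Grow map, in every comparison. Desert contact with the B bins of the distal q arm scored 1.24 in Grow, 1.25 in Grow-shA1, 0.653 in OIS and 0.647 in OIS-shA1 (1631 pairs), changes of -0.584 and -0.601. With the A bins of the same arm the scores were -0.338, -0.527, -0.989 and -0.954 (1057 pairs), changes of -0.651 and -0.427. The contact with B bins thus dropped from a large excess to a moderate one, and that with A bins from a small deficit to a large one. In the proximal q arm the B bins scored 0.842, 1.01, 0.0892 and 0.391 (1362 pairs) and the A bins -0.149, -0.318, -0.898 and -0.754 (739 pairs). In the p arm, where few A bins kept values to the desert (356 of 2030 pairs), the changes were -0.309 and -0.0983 with A bins and -0.549 and -0.587 with B bins. Across the 3 regions the RAS change with A bins was smaller with shA1 than without it, by 0.210 to 0.314. It was also smaller for the B bins of the proximal q arm (-0.752 and -0.618), and slightly larger for those of the p arm and the distal q arm. Part of the gap with A bins lay in the starting level. Grow-shA1 minus Grow was -0.160, -0.169 and -0.189 with the A bins of the p arm, proximal q arm and distal q arm. There OIS-shA1 minus OIS was 0.0505, 0.145 and 0.0349. The RAS change without shA1 and the one with it share no map, and each lies within its own data set. Outside the desert, distal pairs of 2 B bins changed by -0.15 and -0.145, pairs of an A and a B bin by -0.225 and -0.0982, and pairs of 2 A bins by -0.0205 and -0.0184.

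The CDH8 block carried most of the desert's change. Its contact with the p arm went from 0.54 and 0.575 in Grow and Grow-shA1 to -0.0706 and -0.0871 in OIS and OIS-shA1 (1873 pairs), changes of -0.611 and -0.662. To the distal q arm its changes were -0.758 and -0.643 (1759 pairs), and to the proximal q arm -0.932 and -0.744 (1472 pairs). The CDH11 block changed by -0.293 and -0.184 to the p arm (782 pairs), by -0.329 and -0.324 to the distal q arm (929 pairs) and by -0.328 and -0.107 to the proximal q arm (629 pairs). In all 6 of these comparisons the CDH11 block moved less than the CDH8 block. The split at 64 Mb was set after the values had been seen, so this contrast of the blocks describes them and is no test.

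Each bin's own change was summarised as the mean difference over its distal pairs with B bins. In Grow the desert bins had a mean distal contact of 0.824 ± 0.315 with B bins, in Grow-shA1 0.86 ± 0.346, in OIS 0.258 ± 0.16 and in OIS-shA1 0.351 ± 0.132 (SD over 35 bins). A bin was counted as lower when this mean fell by at least 0.25. From Grow to OIS 33 of 35 desert bins were lower (median -0.544, range -0.903 to -0.162) where 19.2% of the bins compared genome-wide were, and this is the measure that chose the desert. From Grow-shA1 to OIS-shA1, the pair of maps that the choice did not use, 28 of 35 desert bins were lower (median -0.511, range -0.907 to -0.0461), against 17.0% genome-wide. All 25 bins of the CDH8 block were lower in both (medians -0.678 and -0.631), while in the CDH11 block 8 and 3 of 10 bins were (medians -0.308 and -0.185). In OIS-shA1 against OIS no desert bin was counted as lower or as higher, where 490 and 198 of 13602 bins were genome-wide. The desert median was 0.113, against -0.0501 genome-wide, and 5 of the 35 bins were below 0. The median percentile of the desert bins among all bins was 88.7.

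**Figure D3:**
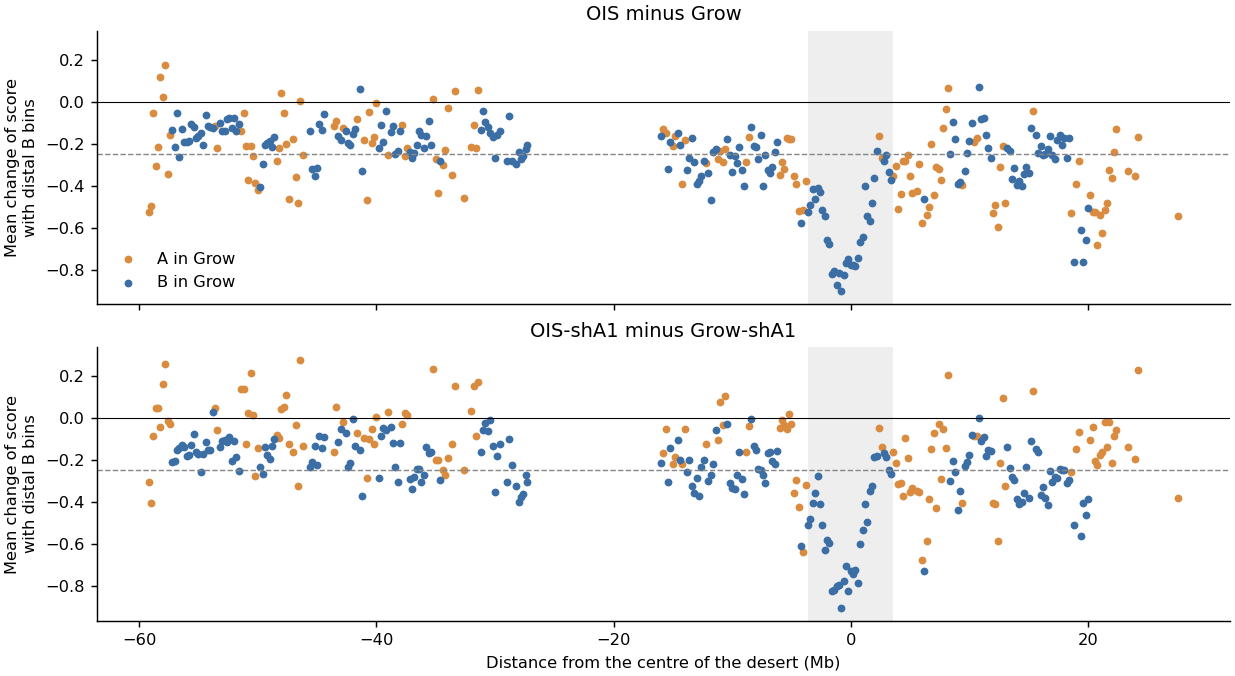
Mean difference of contact score of each kept bin of chromosome 16 over its distal pairs with B bins, for the RAS change without shA1 and with shA1. Bins are placed by their distance from the centre of the desert in Mb. Within the shaded desert the bins from 59 to 64 Mb sit lowest, with the deepest at -0.903 and -0.907, and the bins from 64 to 66 Mb sit nearer to 0.

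The edge of the desert was not sharp in this measure. The first desert bin, from 59000668, changed by -0.491 without shA1 and -0.482 with it, and the bin just before it, from 58799756, by -0.527 and -0.508. That outer neighbour had no gene and scored like the desert, at -1.33 and -1.35 in Grow and Grow-shA1. At the distal end the last desert bin, from 65802068, changed by -0.373 and -0.268, and the next bin, from 65999190, by -0.354 and -0.163. The limits of 59 and 66 Mb are round positions on the map and cut through runs of similar bins.

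The deepest bin of the desert was also the lowest of all bins compared genome-wide in both pairs of maps. It runs from 61602363 to 61798795 and overlaps CDH8, and its mean contact with 171 distal B bins was 1.13 in Grow, 1.24 in Grow-shA1, 0.23 in OIS and 0.338 in OIS-shA1. The changes were -0.903 and -0.907 (SD over pairs 0.585 and 0.658). The next bin, from 61798796, had 1.15, 1.25, 0.322 and 0.477 over 170 pairs, and the bin from 61200680 had 1.09, 1.17, 0.217 and 0.364 over 165 pairs. In each of these bins both senescent maps lay far below both growing maps. With shA1 the bins from 62199702 (1.09, 1.27, 0.345 and 0.447 over 172 pairs) and from 60798697 (1.09, 1.15, 0.273 and 0.332 over 175 pairs) were the next lowest of the chromosome, at -0.823 and -0.822. Among the 10 lowest bins genome-wide 6 lay in the desert without shA1 and 4 with it, and among the 50 lowest 14 and 12 did. At the other end of the chromosome's range stood bins that mostly had few distal B pairs. The bin from 4599887 with MGRN1 (31 pairs) had -0.597, -0.592, -0.423 and -0.335, the bin from 4200124 (17 pairs) changed by 0.116 without shA1, and the bin from 73202473 with ZFHX3 (172 pairs) by 0.0696. With shA1 the bin from 15996747 with ABCC1 (24 pairs) rose by 0.276 and the bin from 27198431 with IL4R (78 pairs) by 0.232.

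Chromosome 16 stood low as a whole, with and without its desert. The median change of its 342 bins was -0.247 without shA1, the lowest of the 23 chromosomes compared, and -0.187 with it, where chromosome 19 was lower at -0.192. Without the desert bins the medians were -0.223 and -0.166, against -0.0893 and -0.067 over the genome. In all, 169 of its 342 bins were lower without shA1 and 123 with it. By region, 37 and 26 of 146 bins were lower in the p arm, 37 and 23 of 63 in the proximal q arm, and 62 and 46 of 98 in the distal q arm. The shares of the p arm, 25.3 and 17.8%, were near the 19.2 and 17.0% of the genome, and those of the other regions were above it. Of its 174 B bins outside the desert, 62 (35.6%) were lower without shA1 and 65 (37.4%) with it, where 17.2 and 18.1% of B bins outside the desert were lower genome-wide. Since the desert is a distal partner of these bins, part of their change is the same pairs seen from the other side.

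Desert pairs were frequent among the deepest falls of single pairs. Of the 37530 distal pairs of chromosome 16 with a value in all maps, 20.4% had an end in the desert. Among the 375 pairs (1%) that fell most from Grow to OIS, at or below -1.85, 204 (54.4%) had one, and among the 375 that fell most from Grow-shA1 to OIS-shA1, at or below -1.81, 200 (53.3%) did. Among the 375 largest rises only 12 (3.2%) and 27 (7.2%) did. Without shA1 the desert falls led to the distal q arm in 93 pairs, the proximal q arm in 84 and the p arm in 27, and with shA1 in 77, 48 and 75. These 3 blocks held 7.04, 5.47 and 7.07% of the distal pairs. None of the falls joined 2 desert bins, but such pairs were only 0.829% of the distal pairs. In OIS-shA1 against OIS 69 of the 375 largest rises (18.4%) and 26 of the 375 largest falls (6.93%) were desert pairs, and in Grow-shA1 against Grow 56 (14.9%) and 51 (13.6%).

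Inside the desert the pattern was another one, and here the 2 RAS comparisons parted. The mean score of all 630 pairs within the desert was 1.15 in Grow, 1.02 in Grow-shA1, 0.723 in OIS and 1.00 in OIS-shA1, a change of -0.432 without shA1 and of -0.0167 with it. Local pairs scored 1.07, 1.02, 0.405 and 0.728 (SD 0.742, 0.739, 0.896 and 0.868, 319 pairs including each bin with itself). They changed by -0.67 without shA1, where all were lower, and by -0.296 with it, where 81.2% were lower. Distal pairs scored 1.24, 1.01, 1.05 and 1.28 (SD 0.70, 0.741, 0.879 and 0.768, 311 pairs), changes of -0.187 and 0.270. With shA1, RAS thus went with less local contact and more contact over a longer range in the desert, and the change with shA1 lay 0.374 above the change without it for local pairs and 0.457 above it for distal ones. The distal values depended on the processing: with maps scaled to a common SD the changes were -0.366 and 0.0391, and over pairs more than 5 Mb apart the change without shA1 turned to 0.142. The change with shA1 ranged from 0.0391 to 0.409 over the alternatives tried.

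The order of these changes followed distance. In the CDH8 block, pairs of neighbouring bins up to 0.3 Mb apart scored 0.491 in Grow, 0.527 in Grow-shA1, -0.454 in OIS and -0.0384 in OIS-shA1 (24 pairs), and all of them were lower with RAS in both pairs of maps, by a mean of -0.944 and -0.565. From 0.3 to 1 Mb the changes were -0.82 and -0.372 (76 pairs). From 1 to 2 Mb they were -0.508 and -0.0279 (87 pairs). The fall therefore shrank with distance in both, and at every distance it was smaller with shA1. From 2 to 3 Mb the changes were -0.213 and 0.311 (63 pairs), and from 3 to 5 Mb, where the scores were 1.82, 1.46, 1.93 and 1.96, they were 0.105 and 0.502 (50 pairs). Part of the rise with shA1 at these distances lies in its starting level, as Grow-shA1 was 0.261 below Grow from 2 to 3 Mb and 0.362 below it from 3 to 5 Mb. Pairs of B bins elsewhere on the chromosome changed by -0.0237 to 0.00865 without shA1 and by -0.0862 to 0.107 with it over the same 5 ranges.

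**Figure D4:**
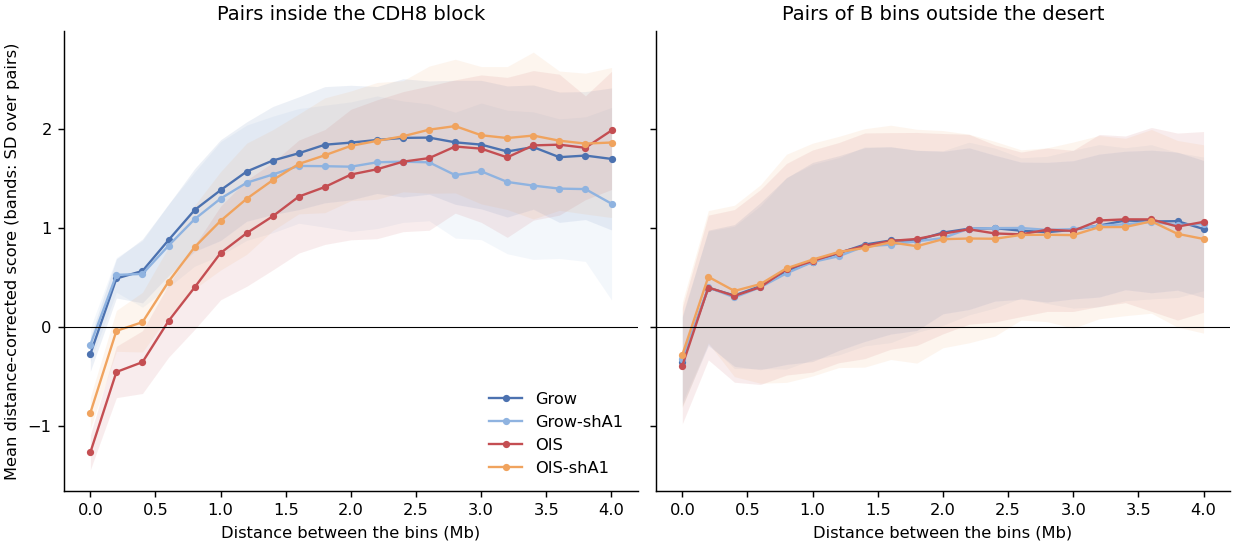
Mean contact score within the CDH8 block (59 to 64 Mb) against the distance between 2 bins in Mb, in the 4 maps, beside pairs of B bins elsewhere on chromosome 16. In the block the OIS map is lowest at short distances, OIS-shA1 lies between it and the growing maps, and the maps meet or cross beyond 2 Mb, while the other B bins show little separation.

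Counted by bin, local contact fell in most of the desert. The mean local contact with B bins was 1.21 in Grow, 1.16 in Grow-shA1, 0.545 in OIS and 0.88 in OIS-shA1. Of the 33 of 35 desert bins with a value all were lower by at least 0.25 from Grow to OIS (median -0.694) where 48.9% of bins were genome-wide, and 21 of 33 were lower from Grow-shA1 to OIS-shA1 (median -0.272) where 23.7% were. In OIS-shA1 against OIS 29 of 33 desert bins were higher (median 0.361), against 25.8% genome-wide. The B bins of chromosome 16 outside its desert did not share this: 16 of 133 (12.0%) were lower without shA1, 20 (15%) with it, and 9 were higher in OIS-shA1 than in OIS. Over bins of both compartments the regions differed. In the distal q arm 22 of 52 bins (42.3%) were lower without shA1 and 24 (46.2%) with it. In the p arm 7 and 11 of 85 were, and in the proximal q arm 3 and 4 of 48. The desert was thus a region of local change on a chromosome whose other B bins had less of it than the genome as a whole. The comparison of OIS-shA1 with OIS crosses the 2 data sets and shares the OIS map with the RAS change without shA1.

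Another stretch of the chromosome also had lower contact inside itself with RAS. Outside the desert 5 runs of at least 10 consecutive B bins were found in Grow, holding 66 of the 174 B bins, and they are named here by a gene they hold. The CNTNAP4 run (75601683 to 77802193, 11 bins), around a gene for a neuronal adhesion protein, was the most A/T-rich, with 38.7% GC and an A/T-run share of 22.5%. Its pairs up to 1 Mb apart scored 0.578, 0.594, -0.128 and 0.225 (38 pairs), changes of -0.707 and -0.37, beside 0.832, 0.795, -0.018 and 0.377 in the CDH8 block (100 pairs, -0.85 and -0.418). In OIS-shA1 it lay 0.353 above OIS and the CDH8 block 0.395. Over all pairs inside it, the CNTNAP4 run changed by -0.63 and -0.349, where the CDH8 block, a longer stretch, changed by -0.499 and -0.0517. The RBFOX1 run (5200683 to 8801502, 42.5% GC), at the gene of a neuronal splicing factor, changed by -0.078 and 0.121, and the WWOX run (78001587 to 80998937, 42.3% GC), which also holds the gene of the transcription factor MAF, by -0.115 and 0.0189. The HS3ST4 run (25200369 to 27198430, 42.2% GC) and the GNAO1 run (53998852 to 56399728, 43.7% GC, with IRX3, IRX5 and MMP2) had higher scores with RAS, by 0.208 and 0.286 and by 0.162 and 0.164. The runs were selected after values had been seen and serve as a description.

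**Figure D5:**
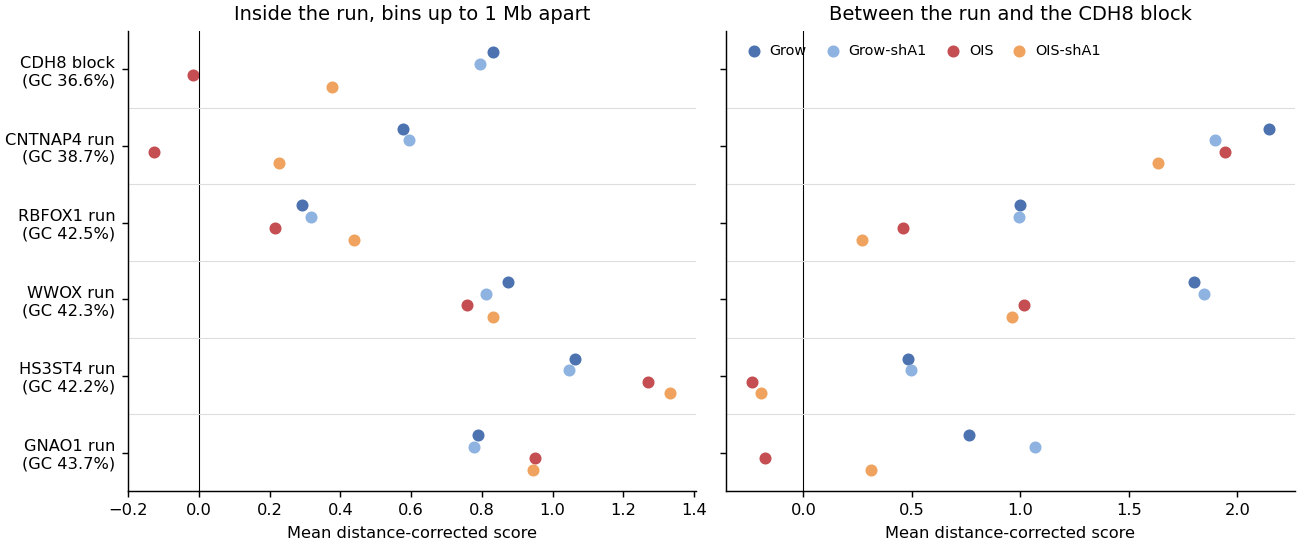
Mean contact score in the 4 maps for the CDH8 block and the 5 longest B runs of chromosome 16 outside the desert, for pairs up to 1 Mb apart inside each and for pairs between each run and the CDH8 block. The CDH8 block and the CNTNAP4 run drop below 0 in OIS inside themselves, at -0.018 and -0.128, while the contact of 4 runs with the CDH8 block falls in both RAS comparisons by more than 0.5 and that of the CNTNAP4 run by -0.203 and -0.261.

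Between the desert and these runs, the CNTNAP4 run stood apart as well. Its contact with the CDH8 block was the highest of the runs and fell least, from 2.14 in Grow and 1.89 in Grow-shA1 to 1.94 in OIS and 1.63 in OIS-shA1 (275 pairs). The WWOX run, its neighbour, fell from 1.80 and 1.85 to 1.02 and 0.962 (375 pairs). The GNAO1 run, on the near side of the desert, fell from 0.761 and 1.07 to -0.179 and 0.311 (300 pairs), the RBFOX1 run from 0.999 and 0.992 to 0.46 and 0.269 (400 pairs), and the HS3ST4 run from 0.482 and 0.494 to -0.237 and -0.196 (203 pairs). The loss of contact of the desert with other B chromatin was therefore uneven. The CNTNAP4 run, which kept most of its contact, was closest to the desert in GC content and also started highest in Grow. The other 4 runs, at 42.2 to 43.7% GC, changed by -0.54 to -0.94 without shA1. A relation to base composition was not tested. To the other B bins of the chromosome outside the desert, the CDH8 block changed by -0.708 and -0.719, the CNTNAP4 run by -0.347 and -0.308, and the other 4 runs by -0.0715 to -0.182 over both comparisons.

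Beside the long-range pairs inside the CDH8 block, some contacts of the CDH11 block were also higher with RAS. CDH13 encodes T-cadherin, a cadherin held to the membrane by a lipid anchor, and lies further along the q arm. Between the CDH11 block and the 7 bins of CDH13 (82591578 to 83993956) the score was 0.508 in Grow, 0.138 in Grow-shA1, 0.923 in OIS and 0.94 in OIS-shA1 (SD 0.315, 0.524, 0.619 and 0.411, 70 pairs), and 82.9 and 97.1% of the pairs were higher with RAS, by a mean of 0.415 and 0.802. With the other A bins of the distal q arm the same block had -0.277, -0.479, -0.756 and -0.97 (389 pairs), a fall in both. The CDH8 block had -0.528, -0.868, -1.38 and -1.09 to the CDH13 bins (130 pairs), so the rise at CDH13 was not shared by its neighbour in the desert. The CDH11 block also gained contact with the bins from 59399000 to 59801033, whose compartment scores of -0.284 and -0.0979 in OIS were the highest of the CDH8 block, at 1.33, 0.939, 1.98 and 1.70 (20 pairs), and with the 5 bins before the desert (57995826 to 59000667), at 1.17, 0.834, 1.61 and 1.60 (50 pairs). All of the former pairs were higher with RAS with and without shA1. To the other 23 bins of the CDH8 block it had 0.918, 0.803, 0.489 and 0.858 (230 pairs). These blocks were chosen after their values had been seen, and Grow-shA1 lay 0.37 below Grow at CDH13.

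The cadherin genes of chromosome 16 lay in very different bins. CDH8 (chr16:61681146-62070939, minus strand) starts in a bin whose compartment score was -1.36, -1.39, -1.25 and -1.21 and whose distal contact with B bins was 1.15, 1.21, 0.387 and 0.499, in Grow, Grow-shA1, OIS and OIS-shA1. CDH11 (chr16:64977656-65160015, minus strand) starts in an A bin with a distal contact of 0.245, 0.226, -0.0241 and 0.0853, changes of -0.269 and -0.14. CDH5, the cadherin of endothelial junctions, starts just after the desert in a strong A bin (0.987, 0.947, 1.09 and 1.14) with changes of -0.512 and -0.314. CDH1, the gene of epithelial E-cadherin, shares its bin with CDH3, and this bin scored -0.653, -0.673, 0.173 and 0.304 and changed by -0.462 and -0.73. It moved from B to A with RAS in both pairs of maps. Its contact with the CDH8 block was -0.108, -0.132, -1.76 and -1.60 (21 pairs), changes of -1.65 and -1.47. Of 8 cadherin genes on the list, 7 lay in 6 kept bins, of which 6 were lower by at least 0.25 without shA1 and 4 with it, where 19.2 and 17.0% of bins were genome-wide and 49.4 and 36% on chromosome 16. The bins of CDH8 and CDH11 belong to the desert, which was chosen by its fall from Grow to OIS. Their part of the count without shA1 therefore supports nothing about cadherin genes.

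The shares of lower bins among the other listed genes are to be read against the same 49.4 and 36% of all bins of the chromosome. Of 13 genes of the matrix and of inflammation, 11 lay in 9 kept bins, and 5 of these were lower without shA1 and 3 with it. The bin of MMP2, a gelatinase that degrades basement membrane collagen, scored -0.359, -0.259, 0.156 and -0.013 and changed by -0.323 and -0.166. The bin of NOD2, an intracellular sensor of bacterial peptidoglycan, scored -0.725, -0.708, 0.181 and 0.0101 and changed by -0.469 and -0.27. Both lie in the proximal q arm, and both bins left B in OIS. The bin shared by the chemokine genes CCL17, CCL22 and CX3CL1 changed by -0.179 and -0.0288 and was not lower by the limit. Among 5 cell cycle genes 3 had kept bins, with 1 lower in each comparison, that of RBL2, the gene of the retinoblastoma-like protein p130, at -0.404 and -0.363. Its score went from -0.735 and -0.476 to 0.000758 and 0.241. Of 7 developmental genes in 6 bins 2 and 1 were lower, and the bin shared by the forkhead genes FOXF1 and FOXC2 moved the other way in compartment, from 0.584 and 0.328 to -0.161 and -0.158. Of 6 landmark genes 5 had kept bins, of which 3 and 1 were lower, and CTCF, the gene of the insulator protein, changed by -0.353 and -0.351 in a bin whose score fell from 0.966 and 0.951 to 0.348 and 0.387. Over all lists 33 of 39 genes had a kept bin, and of these 29 bins 17 and 10 were lower (medians -0.284 and -0.166), where 169 and 123 of all 342 bins of the chromosome were. The desert bins of CDH8 and CDH11, chosen by this fall without shA1, are among these bins.

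The 2 ends of the chromosome lie in the gene-rich chromatin that the filter mostly removed, so they were looked at with any pair that had a value. The first 5 Mb of the p arm and the last 5 Mb of the q arm, which are far apart on the chromosome, had more contact than usual for the distance in all maps, with 0.804, 0.707, 0.732 and 0.734 in Grow, Grow-shA1, OIS and OIS-shA1 (371 of 650 pairs). Many of their pairs with the desert were not listed, above all in the senescent maps: 35.1, 26.3, 11.5 and 9.71% of the pairs from the first 5 Mb were, and 59.9, 42.4, 20.5 and 18.9% of those from the last 5 Mb. The 50 pairs of the latter with values in all maps scored -1.07, -1.21, -1.25 and -1.25. The ends thus had similar contact with each other in the 4 maps, and their contact with the desert could not be followed at this depth.

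The relation of the changes to A/T runs differed between comparisons. Over the 35 desert bins the change of distal contact with B bins from Grow to OIS had a correlation of r = -0.591 (rho = -0.614) with the A/T-run share. Over the 307 kept bins of the chromosome outside the desert it was r = 0.0243 (rho = 0.0788), and over all 342 bins r = -0.323 (rho = -0.139). From Grow-shA1 to OIS-shA1 it was r = -0.551 (rho = -0.576) in the desert and r = -0.215 (rho = -0.197) outside it, and for OIS-shA1 against OIS r = 0.0432 (rho = 0.144) in the desert and r = -0.484 (rho = -0.488) outside. The local difference between OIS-shA1 and OIS had r = 0.584 (rho = 0.401) with the A/T-run share over 33 desert bins and r = 0.0985 (rho = 0.0819) over 185 others. Neighbouring bins share pairs, fragments and base composition, so that the bins are not independent and these values are a description. The relation also includes the difference between the 2 blocks of the desert.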

How the data were processed

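Hi-C was performed by the authors on IMR90 cells with HindIII digestion and ligation in the nucleus. Per the study's methods, reads were aligned to hg19 with HiC-Pro, artefacts and duplicates were removed, and contacts in bins of about 200 kb, which end at HindIII sites, were ICE-normalised and corrected for distance. The deposited contact score of each pair is relative to the mean at its distance, with log base and prior not stated. Samples of a condition were pooled by the authors. No counts are in the files used here, so the depth is unknown and no interval could be given.

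Bins listed in at least 50% of their pairs in every map were kept. A pair entered a mean only if all 4 maps listed it. Compartments were computed per chromosome as the first principal component of the correlation matrix, signed by protein-coding genes per bin. For this step unlisted pairs were set to 0. Partner bins were A or B by the Grow map in every comparison. Each comparison was a difference of 2 maps with no test. Gene starts were taken from GENCODE v44 lifted to GRCh37, whose chromosome 16 matched the bin list. The genes named were those that start in the desert and lists by role, and the bins named were the desert bins and the 3 with the largest rise and fall in each RAS comparison. Alternatives changed the scaling, centring, pairs, bins and limits. The members and lists were chosen with earlier results of these data known. The split of the desert at 64 Mb, the B runs and the CDH13 and intermediate blocks were chosen after values were seen. A recomputed score was counted as unchanged within 0.1 of the main value, or with the same sign and within 1.5 times of it. Counts and percentages were counted as unchanged within 1.5 times. The scripts were tested on simulated data. Python 3.11.15, numpy 2.4.6, pandas 2.3.3, scipy 1.17.1 and matplotlib 3.10.9 were used.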

Additional observations from a re-analysis of the deposited data

Results flagged for a closer look

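The contact over more than 2 Mb within the desert moved in opposite directions in the 2 RAS comparisons. From Grow to OIS its mean changed by -0.187 and from Grow-shA1 to OIS-shA1 by 0.270, over the same 311 pairs of bins. It was singled out because the maps without shA1 and those with it gave opposite signs, and with 1 map per condition this difference was not tested. Grow-shA1 also lay 0.222 below Grow in these pairs.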

How the results depend on the processing

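Of 456 recomputed values of 63 results, 421 stayed within the tolerance, and 15 had another sign than the main value, most of them close to 0. Scaling the maps to a common SD moved the distal contact within the desert from -0.187 to -0.366 without shA1 and from 0.270 to 0.0391 with it. Common centring gave -0.0531 for the former and moved the local contact within the desert with shA1 from -0.296 to -0.163. With all pairs listed in each map, or with unlisted pairs set to 0, the desert's change was smaller: -0.308 or -0.218 to the p arm without shA1, -0.333 or -0.235 with it, -0.349 or -0.327 to the distal q arm without shA1, and -0.296 or -0.274 with it. A desert of 60 to 65 Mb gave 0.409 for its distal contact with shA1. A limit of 5 Mb between local and distal pairs gave -0.041 for local contact with shA1, and it turned the distal contact within the desert to 0.142 from Grow to OIS and to -0.0489 for OIS-shA1 against OIS (0.235 at 2 Mb). The cause was not tested, except that the last limit leaves fewer pairs. The share of listed pairs limits contacts with gene-rich bins most. No paired analysis was possible because the deposited maps pool the 2 samples of a condition, and a sample could not be left out for the same reason.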
